A study of Homo sapiens with 28 samples.

Results

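The genes described here are 38 members of homologous recombination and double-strand break repair, found by their symbols among the 61815 genes of the counts table, and all 38 were tested in both experiments. Their RNA was measured in LNCaP, an androgen-responsive prostate cancer line derived from a lymph node metastasis, across 28 libraries in 8 groups. LNCaP cells, wild type per the labels, were plated in 12-well plates and kept for 72 h before treatment in steroid-depleted (charcoal-stripped) serum medium. In one experiment, cells received 0.1% DMSO (vehicle), 1 µM Senexin B, 0.1 nM R1881 or R1881 with Senexin B for 24 h, with 3 libraries a group. In the other, cells received 0.1% DMSO, 500 nM SNX631, 1 nM R1881 or R1881 with SNX631 for 72 h, with 4 libraries a group. R1881 is a synthetic androgen, and Senexin B and SNX631 inhibit the Mediator kinases CDK8 and CDK19. Time, androgen dose and inhibitor changed together between the experiments, so their parts cannot be told apart. The study's methods call its RNA-seq replicates biological, while the labels do not say how the cultures of a group were kept apart, and the p values measure the spread between these libraries.

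A double-strand break can be rejoined end to end by the Ku proteins, DNA-PKcs and ligase IV, or copied from the sister chromatid by homologous recombination. Recombination starts with resection of the ends by the MRE11 complex with CtIP (RBBP8), EXO1 and BLM. BRCA1 with BARD1, PALB2 and BRCA2 then bring the recombinase onto the resected strand, helped by the recombinase paralogs, and the RAD54 motors drive strand exchange. The Fanconi anaemia core complex, which attaches ubiquitin to FANCD2 and FANCI, serves the repair of crosslinks between DNA strands. The checkpoint kinases ATM, ATR, CHEK1 and CHEK2 signal the damage. Recombination needs a sister chromatid, and many of its genes are known to be transcribed mainly as cells enter and pass through S phase. In prostate cancer, defects of recombination genes such as BRCA2 are known for sensitivity to PARP inhibitors.

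Since many members moved together with androgen, the bases before their transcription starts were compared. RefSeq promoter windows of 300 bases (250 before the start and 50 after it, build GRCh38.p14) were at hand for 33 of the 38 members. The stretches shown are the 180 bases nearest the most upstream RefSeq start that no GENCODE 29 exon covers, 5′ to 3′ on the strand of the gene. BLM, RAD54L and BRIP1 are the members with the highest mean androgen effect whose windows held at least 150 such bases. FANCA is the first in that order with an E2F octamer in them, and BARD1 is the member that fell. Capitals mark CCAAT, on either strand, or an E2F octamer.
BLM, chr15:90717147-90717326 (+): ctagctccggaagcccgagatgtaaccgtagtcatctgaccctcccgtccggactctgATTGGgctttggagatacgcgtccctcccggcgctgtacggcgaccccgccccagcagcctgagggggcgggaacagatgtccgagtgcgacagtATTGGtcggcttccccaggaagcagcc
RAD54L, chr1:46247508-46247687 (+): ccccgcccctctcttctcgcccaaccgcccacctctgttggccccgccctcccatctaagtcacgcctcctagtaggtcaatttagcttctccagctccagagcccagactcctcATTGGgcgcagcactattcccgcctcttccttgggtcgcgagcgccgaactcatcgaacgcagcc
BRIP1, chr17:61863529-61863708 (−): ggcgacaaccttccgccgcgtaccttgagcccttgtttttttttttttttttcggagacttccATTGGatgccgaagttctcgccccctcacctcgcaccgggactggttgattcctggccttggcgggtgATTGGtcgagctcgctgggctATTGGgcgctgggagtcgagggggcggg
FANCA, chr16:89816658-89816837 (−): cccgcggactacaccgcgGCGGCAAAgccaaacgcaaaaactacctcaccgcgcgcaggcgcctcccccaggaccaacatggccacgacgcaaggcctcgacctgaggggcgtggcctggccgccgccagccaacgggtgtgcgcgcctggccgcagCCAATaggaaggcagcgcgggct
BARD1, chr2:214809712-214809891 (−): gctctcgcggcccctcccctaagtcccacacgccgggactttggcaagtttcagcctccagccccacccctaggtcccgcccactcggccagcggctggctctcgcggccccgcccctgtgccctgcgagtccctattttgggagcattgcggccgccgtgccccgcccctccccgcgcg
The printed bases held 2 CCAAT matches before BLM, 1 before RAD54L and 3 before BRIP1. FANCA had 1 CCAAT and 1 E2F octamer, and BARD1 had neither. Over the whole windows, an E2F octamer (TTTCGCGC, TTTGGCGC, TTTCCCGC or TTTGCCGC on either strand) was found in 6 of the 33 members, against 3.99% of the 27305 genes with a window. The 6 were EXO1, FANCA, FANCC, FANCD2, XRCC2 and XRCC6. CCAAT occurred in 17 of the 33 members and in 39.7% of all genes. The CHR letters TTTGAA or TTCGAA were found in 3 members and 19.5% of all genes, and the androgen receptor half-site AGAACA in 3 members and 17.5% of all genes. Of the 20 members that rose with androgen in both experiments, 18 had a window, 5 of those with an E2F octamer and 9 with CCAAT. The E2F octamers were counted as one family, and a match describes letters only.

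Levels were set side by side per kilobase of merged exons (GENCODE 29 on GRCh38, matched by gene identifier for all 38 members). Merged exons join all annotated transcripts of a gene, not only those expressed, so levels compared between genes depend on that length. XRCC6 and XRCC5, which encode the Ku70 and Ku80 proteins, had the highest levels of the members in all 8 groups, and in the 72 h vehicle libraries they stood at 156 ± 1.69 and 81.9 ± 1.50 CPM per kilobase (mean ± SD, n = 4). PRKDC, the gene of DNA-PKcs, stood at 36.3 ± 2.18. BARD1 came next among the members at 32.8 ± 0.651, while its partner BRCA1 had 2.31 ± 0.168. The lowest level was that of BLM, at 0.545 ± 0.117 CPM per kilobase. After 72 h of R1881, BARD1 stood at 9.41 ± 0.988 and BRCA1 at 5.86 ± 0.386 CPM per kilobase. Exons of 6 members overlap another gene on the same strand and those of 16 overlap one on the opposite strand, and the use of strand in counting is not given in the sources used here, so reads there could belong to either gene.

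**Figure D1:**
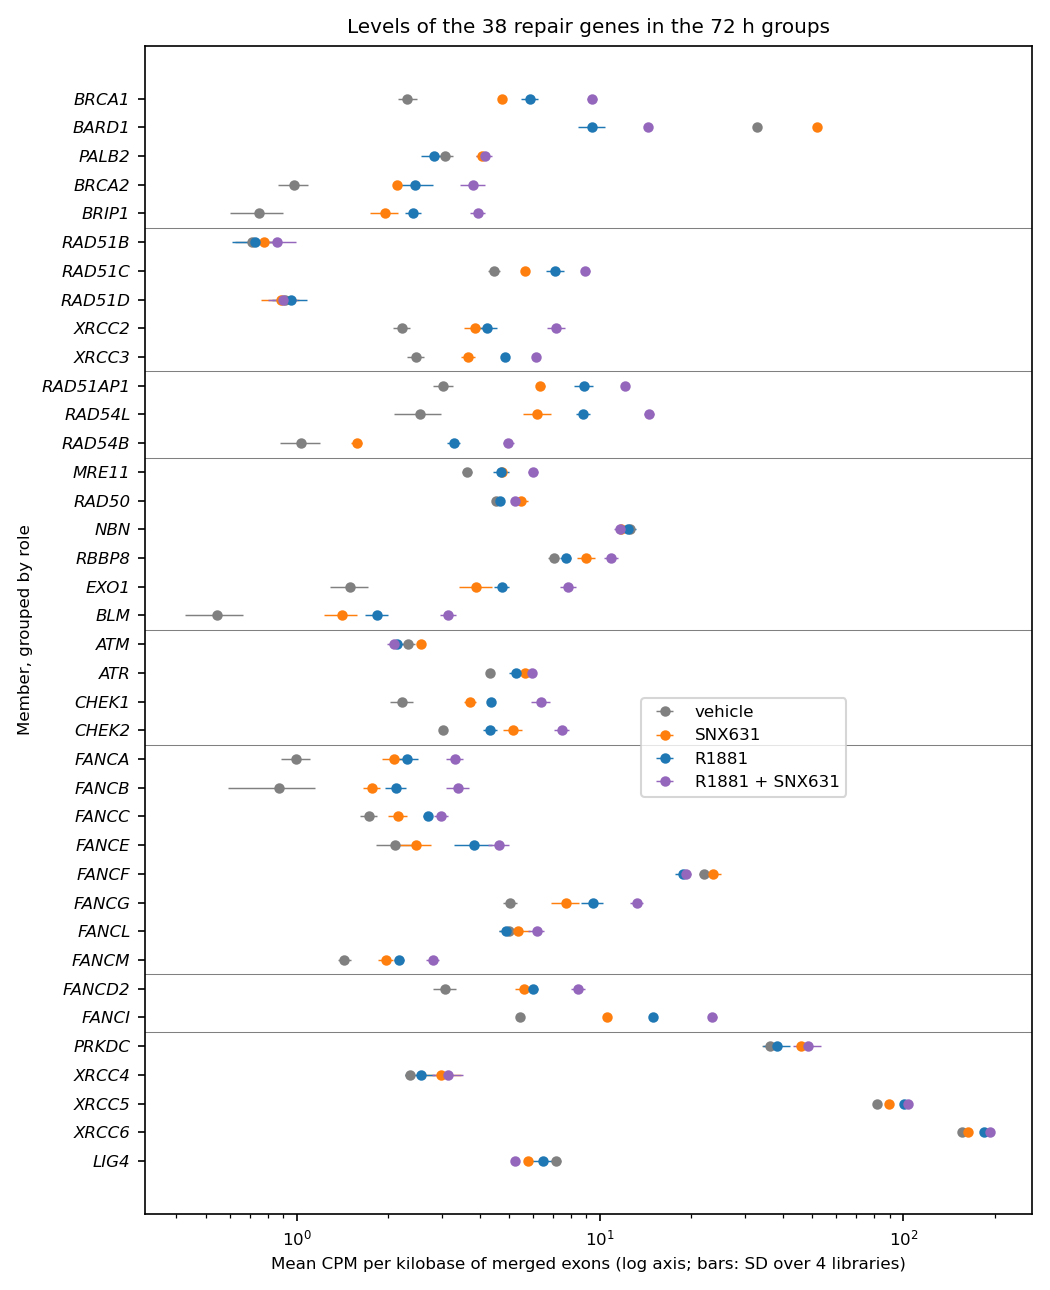
Mean CPM per kilobase of merged exons (horizontal log axis) of each of the 38 members (vertical axis, grouped by role) in the 4 groups at 72 h, with bars for the SD over 4 libraries. XRCC6 and XRCC5 lie farthest to the right in every group, BARD1 is the member whose R1881 point lies far to the left of vehicle, and BRCA1, BRIP1, EXO1 and BLM run from vehicle at the left to R1881 with SNX631 at the right.

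Androgen raised 20 of the 38 members in both experiments. A gene was called at a false discovery rate (FDR) under 0.01 and a fold change over 1.5, which is 0.585 on the log2 scale. With 24 h of R1881, 21 members rose, where 9.81% of all genes tested did, and 1 fell, where 9.19% did. With 72 h of R1881, 20 members rose and 1 fell, against 9.7% and 10.1% of all genes. The 20 members that rose at 72 h were among the 21 that rose at 24 h, CHEK2 being the other, BARD1 fell in both, and 16 members were called in neither. The median log2 fold change of the 38 members was 0.91 at 24 h and 0.62 at 72 h, beside −0.02 and −0.01 for all genes tested. The lowest R1881 value exceeded the highest vehicle value in 31 members at 24 h and 25 at 72 h. The same held for 31.6% and 28.9% of all genes. The reverse separation was seen in 2 members at each time, against 30.5% and 26.1% of all genes. Lack of overlap in a given gene is therefore common. In the presence of Senexin B, R1881 raised 21 members (9.97% of all genes) and lowered 1 (8.9%). In the presence of SNX631, it raised 18 (10.1%) and lowered 1 (12%), FANCC (0.47 ± 0.06) and FANCM (0.51 ± 0.06) being under the fold limit there.

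Genes that mark S phase and mitosis moved in the same comparisons. Of 24 S phase markers, 23 rose with R1881 at each time, and all 24 G2 and mitosis markers rose at each time. Summed over the list, S phase markers ranged over 618 to 641 CPM in vehicle and 2044 to 2166 with R1881 at 24 h, and over 931 to 958 and 2085 to 2118 at 72 h. The G2 and mitosis markers ranged over 181 to 206 and 881 to 930.2 CPM at 24 h and over 519.7 to 575 and 1453 to 1558 at 72 h. The part of cell cycle position in the results for the repair genes was not tested. In RNA from bulk cultures, more cells in a phase and more RNA per cell cannot be told apart.

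The BRCA1 scaffold and the mediators split by direction. BRCA1 (chr17:43044295-43170245, minus strand), a ubiquitin ligase subunit that favours resection, measured 7.32, 9.24 and 6.997 CPM in the vehicle libraries at 24 h and 49.96, 50.3 and 51.3 with R1881. With Senexin B it was 11.3, 10.7 and 8.23 CPM alone and 56.4, 61.9 and 57.5 with R1881. In the 72 h experiment BRCA1 measured 19.4, 20.7, 22.0 and 22.9 CPM in vehicle, 44.2, 42.0, 45.0 and 42.9 with SNX631, 48.8, 56.4, 54.0 and 56.2 with R1881 and 86.1, 86.4, 90.2 and 82.9 with both. No R1881 library overlapped its vehicle libraries, and the combination with SNX631 lay above all other groups. The androgen effect was 2.73 ± 0.09 (log2 fold change ± SE, edgeR adjusted p = 1.61e-23) at 24 h and 1.34 ± 0.06 (adjusted p = 3.00e-22) at 72 h. SNX631 raised BRCA1 by 1.03 ± 0.06 without R1881 and by 0.68 ± 0.04 with it.

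BARD1 (chr2:214725646-214809711, minus strand), the partner that BRCA1 needs for stability and ligase activity, moved the opposite way with androgen. Its libraries held 156, 160.3 and 159.8 CPM in vehicle and 67.3, 65.5 and 66.3 with R1881 at 24 h. Senexin B gave 244, 244 and 244 CPM alone and 73.4, 92.8 and 85.8 together with R1881. At 72 h the values were 204, 199.6, 199 and 194 CPM in vehicle, 320.2, 299.9, 321 and 319 with SNX631, 63.6, 59.5, 55.7 and 49.5 with R1881 and 84.2, 87.2, 89.6 and 89.2 with both. Every R1881 library lay below every vehicle library, and every library with an inhibitor lay above those of the matching group without it. Its log2 fold change with R1881 was −1.26 ± 0.05 at 24 h (± SE, edgeR adjusted p = 1.61e-20) and −1.81 ± 0.04 at 72 h (adjusted p = 1.33e-30). Senexin B raised it by 0.62 ± 0.04, and the value in the presence of R1881 was 0.34 ± 0.06, under the fold limit. SNX631 raised it by 0.66 ± 0.03 without R1881 and by 0.62 ± 0.05 with it, the second being 0.56 without R1881 replicate 4, under the limit. With library totals in place of TMM scaling, the Senexin B effect was 0.58, also under the limit. Per kilobase, the ratio of BARD1 to BRCA1 went from 31.0 ± 4.28 (SD, n = 3) in vehicle to 1.99 ± 0.04 with R1881 at 24 h, and from 14.3 ± 1.32 (SD, n = 4) to 1.62 ± 0.27 at 72 h. The ratio was 37.4 ± 6.5 with Senexin B and 11.0 ± 0.20 with SNX631. Its size within a group depends on the merged exon lengths, and the low BRCA1 level in vehicle is its divisor. BRCA1 counts were not whole numbers in 89.3% of libraries, and those of BARD1 in 0%.

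BRCA2 (chr13:32315474-32400266, plus strand), which loads the recombinase, held 3.00, 3.03 and 3.61 CPM in vehicle, 5.68, 5.47 and 4.88 with Senexin B, 27.9, 21.8 and 26.5 with R1881 and 25.2, 30.2 and 32.4 with both at 24 h. After 72 h, BRCA2 held 10.5, 11.9, 13.7 and 11.7 CPM in vehicle, 26.4, 25.3, 26.9 and 26.6 with SNX631, 23.6, 31.7, 33.2 and 31.8 with R1881 and 49.5, 48.3, 48.7 and 40.2 with both. Vehicle and R1881 libraries did not overlap at either time, as in many of all genes tested. R1881 replicate 1 at 72 h was the lowest of its group. BRCA2 rose with R1881 by 2.92 ± 0.14 at 24 h and 1.34 ± 0.09 at 72 h (log2 ± SE). Senexin B raised it by 0.67 ± 0.17 (edgeR adjusted p = 0.00202), a call that was lost without Senexin B replicate 1 (0.62, adjusted p = 0.0148). SNX631 raised it by 1.13 ± 0.10 without R1881 and 0.62 ± 0.07 with it, the latter being 0.54 without R1881 replicate 1, under the fold limit.

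BRIP1 (chr17:61681266-61863521, minus strand), a helicase that binds BRCA1 and whose promoter bases are shown above, held 1.31, 2.40 and 1.76 CPM in vehicle and 17.3, 19.6 and 13.9 with R1881 at 24 h. Senexin B libraries held 2.88, 2.82 and 2.52 CPM and those with both agents 19.4, 23.8 and 20.6. At 72 h BRIP1 measured 4.35, 6.49, 7.12 and 6.01 CPM in vehicle, 14.0, 17.6, 16.2 and 14.4 with SNX631, 19.9, 18.4, 20.7 and 18.2 with R1881 and 30.03, 33.8, 32.2 and 30.1 with both. At 72 h the 4 groups did not overlap, and they lay in the order vehicle, SNX631, R1881, both. Its androgen effect was 3.20 ± 0.18 at 24 h and 1.68 ± 0.11 at 72 h. PALB2, which bridges BRCA1 and BRCA2, was not called for androgen: 0.37 ± 0.10 at 24 h, which passed the FDR limit with a fold under 1.5, and −0.12 ± 0.08 at 72 h, which did not pass. SNX631 gave PALB2 0.41 ± 0.07 without R1881 and 0.55 ± 0.07 with it, both past the FDR limit and under the fold limit. Without R1881 replicate 4, the latter was 0.61, past both.

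Of the 5 recombinase paralogs, XRCC2, XRCC3 and RAD51C rose with R1881 in both experiments. XRCC2, which joins RAD51B, RAD51C and RAD51D in a complex, held 5.35, 5.22 and 6.29 CPM in vehicle, 7.97, 7.38 and 8.15 with Senexin B, 22.1, 22.3 and 22.6 with R1881 and 26.3, 29.9 and 30.1 with both at 24 h. The 72 h libraries of XRCC2 held 10.7, 11.8, 10.2 and 10.3 CPM in vehicle, 17.2, 18.1, 19.0 and 20.5 with SNX631, 19.0, 22.6, 20.9 and 19.6 with R1881 and 34.4, 38.004, 33.6 and 32.6 with both. The R1881 libraries lay above vehicle throughout, and the libraries with R1881 and SNX631 above all others. The androgen effect on XRCC2 was 1.94 ± 0.10 at 24 h and 0.94 ± 0.08 at 72 h, and SNX631 raised it by 0.80 ± 0.08 without and 0.75 ± 0.06 with R1881. RAD51C held 19.7, 23.0 and 21.2 CPM in vehicle, 17.8, 20.5 and 22.2 with Senexin B, 38.7, 37.7 and 35.2 with R1881 and 39.98, 42.3 and 45.0 with both at 24 h. Its values at 72 h were 27.0, 27.8, 25.6 and 28.4 CPM in vehicle, 33.8, 34.4, 33.7 and 35.3 with SNX631, 41.0, 41.0, 47.5 and 43.2 with R1881 and 52.6, 56.4, 52.8 and 55.03 with both. R1881 raised RAD51C by 0.80 ± 0.07 and 0.67 ± 0.05 in turn, without overlap of the libraries. The call at 72 h was lost with library totals in place of TMM (0.56). XRCC3, the partner of RAD51C in a second complex, rose by 1.21 ± 0.06 and 0.97 ± 0.06; its exons share 5756 bases with KLC1 on the opposite strand. SNX631 gave XRCC3 0.58 ± 0.06 without R1881, under the fold limit, and 0.59, 0.60 and 0.62 without SNX631 replicate 1, SNX631 replicate 2 and vehicle replicate 3, past it. RAD51B was at 0.05 ± 0.16 and 0.02 ± 0.13, not past the FDR limit, and RAD51D at 0.51 ± 0.10, past the FDR limit and under the fold limit, and 0.06 ± 0.10.

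The strand exchange partners and motors all rose with androgen. RAD54L (chr1:46247688-46278473, plus strand), a motor protein of strand exchange, held 2.25, 2.33 and 2.67 CPM in vehicle, 4.797, 7.22 and 4.88 with Senexin B, 24.5, 27.4 and 29.7 with R1881 and 37.4, 40.2 and 35.4 with both at 24 h. At 72 h it held 7.74, 7.56, 10.3 and 7.02 CPM in vehicle, 18.7, 22.7, 20.5 and 17.9 with SNX631, 25.9, 29.1, 29.1 and 28.4 with R1881 and 43.8, 47.1, 47.2 and 47.6 with both. None of the 4 groups overlapped another within either experiment. R1881 raised RAD54L by 3.43 ± 0.14 at 24 h and 1.80 ± 0.09 at 72 h. Senexin B raised it by 1.15 ± 0.17 (edgeR adjusted p = 2.70e-06), the largest effect among the 6 members that Senexin B raised, and SNX631 by 1.30 ± 0.10 and 0.72 ± 0.06 without and with R1881. RAD54L shares 806 exonic bases with LRRC41 on the opposite strand.

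RAD51AP1, which stimulates the recombinase, held 3.29, 2.96 and 2.84 CPM in vehicle, 3.91, 5.39 and 3.43 with Senexin B, 15.3, 16.6 and 17.8 with R1881 and 17.0, 17.6 and 16.8 with both at 24 h. At 72 h its values were 7.05, 8.47, 7.81 and 7.73 CPM in vehicle, 16.002, 17.1, 16.2 and 15.8 with SNX631, 21.3, 24.0, 23.9 and 21.2 with R1881 and 31.0, 31.2, 29.8 and 31.5 with both. At 24 h the R1881 libraries with and without Senexin B overlapped, while at 72 h all 4 groups stood apart from each other. The androgen effect was 2.49 ± 0.13 and 1.54 ± 0.08 in turn, and SNX631 raised RAD51AP1 by 1.06 ± 0.08 without R1881. RAD54B, a second motor, held 3.38, 3.53 and 3.84 CPM in vehicle, 4.58, 5.14 and 4.42 with Senexin B, 18.9, 18.3 and 18.8 with R1881 and 23.1, 26.8 and 24.5 with both at 24 h. Its libraries at 72 h held 5.05, 6.11, 4.55 and 6.24 CPM in vehicle, 8.74, 8.53, 8.16 and 8.005 with SNX631, 18.5, 17.4, 17.4 and 16.5 with R1881 and 25.6, 26.0, 26.1 and 28.1 with both. Within each experiment the 4 groups of RAD54B did not overlap and followed the order vehicle, inhibitor, R1881, both. R1881 raised RAD54B by 2.34 ± 0.11 and 1.66 ± 0.10. SNX631 raised it by 0.60 ± 0.11 without R1881 and 0.60 ± 0.06 with it, just past the limit. Without SNX631 replicate 1, vehicle replicate 1 or vehicle replicate 3 the first was 0.57, 0.56 or 0.52, without R1881 replicate 4 or replicate 4 of the combination the second was 0.58 or 0.57, and with library totals both were 0.57, all under the limit. RAD54B shares 3139 exonic bases with FSBP on the same strand.

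**Figure D2:**
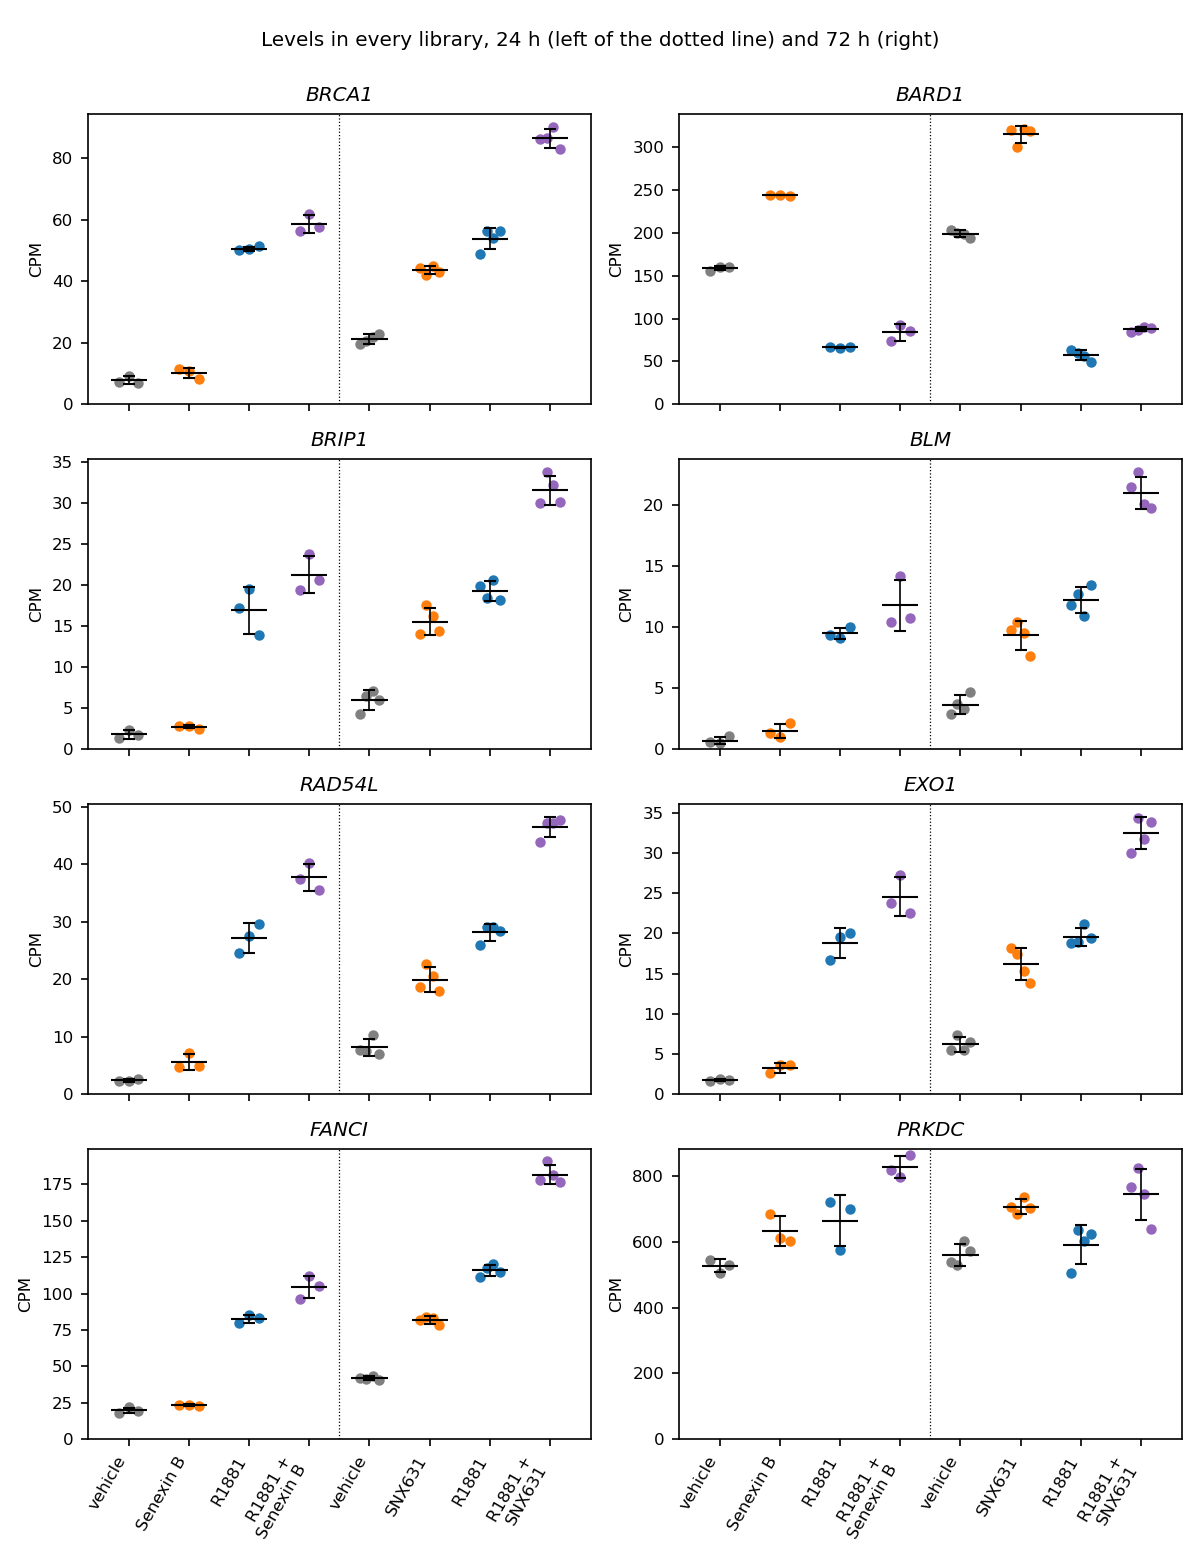
Level in CPM (vertical axes, from 0) of 8 members in each of the 28 libraries (points), by group (horizontal axis), with a line for the mean and bars for the SD (n = 3 at 24 h, n = 4 at 72 h). BRCA1, BRIP1, BLM, RAD54L, EXO1 and FANCI run upward from vehicle to R1881 with inhibitor, BARD1 drops with R1881 and lies highest with an inhibitor alone, and PRKDC lies between 505 and 865 CPM in all libraries.

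End sensing and resection genes divided into 2 that rose and 4 that did not pass the fold limit. EXO1 (chr1:241847967-241895148, plus strand), the exonuclease of long-range resection, held 1.60, 1.91 and 1.73 CPM in vehicle, 2.58, 3.65 and 3.58 with Senexin B, 16.6, 19.6 and 20.1 with R1881 and 23.8, 27.2 and 22.6 with both at 24 h. In the 72 h experiment EXO1 held 5.48, 7.33, 5.49 and 6.48 CPM in vehicle, 18.2, 17.4, 15.3 and 13.8 with SNX631, 18.8, 18.9, 21.2 and 19.4 with R1881 and 29.9, 34.3, 31.8 and 33.9 with both. The groups did not overlap within either experiment. EXO1 rose with R1881 by 3.42 ± 0.16 and 1.65 ± 0.11, with Senexin B by 0.89 ± 0.20, and with SNX631 by 1.37 ± 0.11 without R1881 and 0.73 ± 0.07 with it. BLM (chr15:90717327-90816165, plus strand), the helicase missing in Bloom syndrome, held 0.563, 0.494 and 1.05 CPM in vehicle, 1.33, 0.995 and 2.13 with Senexin B, 9.37, 9.09 and 10.0 with R1881 and 10.42, 14.2 and 10.8 with both at 24 h. Its 72 h libraries held 2.87, 3.74, 3.26 and 4.68 CPM in vehicle, 9.79, 10.5, 9.52 and 7.66 with SNX631, 11.8, 12.8, 11.0 and 13.4 with R1881 and 21.5, 22.7, 20.1 and 19.8 with both. The vehicle values at 24 h rest on few counts, and R1881 libraries exceeded all of them. The androgen effect on BLM was 3.51 ± 0.26 and 1.74 ± 0.13, and SNX631 raised BLM by 1.35 ± 0.14 and 0.78 ± 0.09.

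NBN, a subunit of the MRE11 complex, held 61.0, 59.1 and 61.1 CPM in vehicle, 56.4, 61.0 and 60.3 with Senexin B, 74.9, 74.2 and 75.2 with R1881 and 62.5, 64.8 and 63.1 with both at 24 h. After 72 h, NBN held 75.9, 76.8, 76.7 and 80.1 CPM in vehicle, 74.1, 71.3, 69.9 and 73.1 with SNX631, 79.8, 71.9, 80.6 and 73.0 with R1881 and 69.3, 75.9, 69.3 and 72.4 with both. At 24 h the libraries with R1881 alone stood above the rest, and at 72 h the SNX631 libraries lay below vehicle while R1881 libraries overlapped vehicle. The androgen effect on NBN was 0.31 ± 0.04, past the FDR limit and under the fold limit, at 24 h and −0.02 ± 0.04 at 72 h. MRE11, the nuclease of the complex, passed the FDR limit with folds under 1.5 at 0.52 ± 0.07 and 0.38 ± 0.05. RAD50, the ATPase of the complex, was at 0.17 ± 0.05 and 0.04 ± 0.05, under the fold limit, and shares 7784 exonic bases with a gene on the same strand. RBBP8, which starts resection, was at 0.58 ± 0.06 at 24 h, just under the fold limit, and 0.13 ± 0.06 at 72 h. It passed the limit at 24 h without R1881 replicate 2 (0.61), R1881 replicate 3 (0.60), vehicle replicate 1 (0.59) or vehicle replicate 3 (0.59). SNX631 gave RBBP8 0.35 ± 0.05 without and 0.50 ± 0.05 with R1881, under the fold limit.

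Among the checkpoint kinases, CHEK1 rose at both times, CHEK2 rose at 24 h, and ATM and ATR did not pass the fold limit. CHEK1, the kinase downstream of ATR, held 7.70, 8.11 and 7.76 CPM in vehicle, 8.27, 9.12 and 10.44 with Senexin B, 22.4, 24.7 and 23.9 with R1881 and 31.0, 33.5 and 31.4 with both at 24 h. The 72 h libraries of CHEK1 held 14.4, 12.98, 14.8 and 15.997 CPM in vehicle, 24.0, 25.9, 24.7 and 23.1 with SNX631, 28.9, 28.3, 29.1 and 28.4 with R1881 and 40.01, 46.4, 41.3 and 39.8 with both. The groups stood in the order vehicle, inhibitor, R1881, both in each experiment, without overlap. R1881 raised CHEK1 by 1.59 ± 0.09 and 0.98 ± 0.07, and SNX631 raised it by 0.75 ± 0.07 without R1881. CHEK2, the kinase downstream of ATM, held 9.86, 8.68 and 8.65 CPM in vehicle, 13.8, 15.01 and 14.0 with Senexin B, 17.5, 15.97 and 17.7 with R1881 and 25.1, 22.6 and 24.1 with both at 24 h. Its values at 72 h were 13.8, 13.5, 13.2 and 14.0 CPM in vehicle, 21.2, 25.2, 23.4 and 22.7 with SNX631, 18.6, 18.8, 21.04 and 19.5 with R1881 and 32.5, 33.6, 31.9 and 36.2 with both. In CHEK2 the SNX631 libraries exceeded the R1881 libraries at 72 h. CHEK2 rose by 0.94 ± 0.09 with R1881 at 24 h and was at 0.51 ± 0.07 at 72 h, under the fold limit. Both inhibitors raised it, Senexin B by 0.68 ± 0.09 and SNX631 by 0.76 ± 0.07 without R1881 and 0.78 ± 0.06 with it. ATR held 51.8, 47.6 and 48.6 CPM in vehicle, 61.1, 59.1 and 55.5 with Senexin B, 72.4, 61.7 and 66.8 with R1881 and 71.5, 70.6 and 70.2 with both at 24 h. At 72 h ATR held 52.9, 54.3, 56.6 and 53.3 CPM in vehicle, 69.3, 67.0, 70.1 and 75.5 with SNX631, 62.0, 66.1, 65.2 and 69.9 with R1881 and 73.6, 77.9, 73.5 and 71.9 with both. All other groups lay above vehicle for ATR, and R1881 libraries overlapped SNX631 libraries at 72 h. ATR passed the FDR limit with a fold under 1.5 in both experiments, at 0.45 ± 0.05 and 0.28 ± 0.04, and ATM was at −0.11 ± 0.07 and −0.13 ± 0.05, not past it.

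Of the 8 genes of the Fanconi anaemia core and anchor, 6 rose with R1881 in both experiments. FANCA (chr16:89737549-89816657, minus strand), a core subunit, held 4.98, 3.599 and 5.38 CPM in vehicle, 8.04, 6.72 and 9.37 with Senexin B, 20.1, 22.1 and 19.3 with R1881 and 24.9, 28.4 and 26.1 with both at 24 h. At 72 h it held 8.18, 10.5, 10.2 and 9.75 CPM in vehicle, 19.7, 20.4, 18.6 and 22.6 with SNX631, 20.3, 24.0, 24.1 and 21.8 with R1881 and 31.7, 35.3, 31.6 and 30.4 with both. The SNX631 and R1881 libraries overlapped at 72 h, and the combination lay above both. R1881 raised FANCA by 2.07 ± 0.12 and 1.22 ± 0.09, Senexin B by 0.73 ± 0.14 and SNX631 by 1.06 ± 0.09 without R1881. With SNX631 present, R1881 raised it by 0.67 ± 0.07, or by 0.56 with library totals, under the fold limit. FANCA shares 2302 exonic bases with ZNF276 on the opposite strand.

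FANCB, a core subunit encoded on the X chromosome, held 0.657, 1.06 and 0.910 CPM in vehicle, 1.77, 1.16 and 1.52 with Senexin B, 6.43, 5.12 and 7.002 with R1881 and 9.06, 10.7 and 9.06 with both at 24 h. In the 72 h experiment FANCB held 1.65, 3.66, 3.43 and 3.75 CPM in vehicle, 6.30, 6.46, 6.80 and 5.79 with SNX631, 7.01, 7.87, 8.38 and 7.20 with R1881 and 11.5, 13.6, 12.4 and 11.2 with both. The groups stood in the order vehicle, inhibitor, R1881, both at either time, without overlap. Its androgen effect was 2.77 ± 0.22 and 1.27 ± 0.15, and SNX631 raised it by 1.00 ± 0.15 and 0.67 ± 0.11. FANCG, another core subunit, held 11.6, 13.1 and 10.9 CPM in vehicle, 12.5, 16.01 and 13.9 with Senexin B, 26.9, 31.6 and 33.4 with R1881 and 34.6, 44.5 and 40.6 with both at 24 h. Its libraries held 18.6, 16.8, 18.8 and 18.7 CPM in vehicle, 27.7, 32.1, 25.4 and 26.1 with SNX631, 29.9, 34.2, 36.7 and 35.5 with R1881 and 47.2, 48.7, 50.1 and 44.5 with both at 72 h. R1881 libraries lay above vehicle, SNX631 and R1881 libraries overlapped at 72 h, and the libraries with both were the highest. FANCG rose with R1881 by 1.401 ± 0.10 and 0.91 ± 0.07. SNX631 raised it by 0.61 ± 0.07 without R1881, and by 0.535 without SNX631 replicate 2 or 0.574 without vehicle replicate 2, under the fold limit.

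FANCF, an adaptor of the core complex, held 63.7, 60.6 and 60.3 CPM in vehicle, 62.1, 62.4 and 61.7 with Senexin B, 51.1, 51.2 and 49.5 with R1881 and 51.5, 54.6 and 50.5 with both at 24 h. After 72 h, FANCF held 64.5, 67.9, 64.8 and 62.6 CPM in vehicle, 73.3, 65.3, 73.3 and 66.6 with SNX631, 58.3, 52.5, 57.7 and 52.7 with R1881 and 55.7, 56.6, 54.5 and 59.6 with both. The R1881 libraries lay below the vehicle libraries at both times, and the effect, −0.28 ± 0.05 and −0.24 ± 0.05, passed the FDR limit and not the fold limit. FANCC rose by 0.93 ± 0.08 and 0.65 ± 0.06, FANCE by 1.11 ± 0.13 and 0.88 ± 0.12, and FANCM, a translocase that anchors the core complex to DNA, by 0.88 ± 0.10 and 0.60 ± 0.07. The FANCM call at 72 h was lost without R1881 replicate 1 (0.581) or vehicle replicate 2 (0.566) and with library totals (0.498), and the FANCC call with library totals (0.545). FANCL, the ubiquitin ligase subunit, was at 0.13 ± 0.09 and −0.03 ± 0.09 and was not called.

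Both genes of the ID pair, the substrates of the core complex, rose. FANCD2 (chr3:10026414-10101930, plus strand) held 14.8, 17.1 and 13.9 CPM in vehicle, 19.5, 19.4 and 19.7 with Senexin B, 33.8, 36.0 and 38.5 with R1881 and 45.2, 53.7 and 46.5 with both at 24 h. The 72 h libraries of FANCD2 held 23.1, 25.0, 28.6 and 26.2 CPM in vehicle, 50.3, 44.4, 48.3 and 44.2 with SNX631, 48.3, 50.2, 51.4 and 51.9 with R1881 and 70.4, 75.2, 71.9 and 65.7 with both. SNX631 and R1881 libraries overlapped at 72 h. R1881 raised FANCD2 by 1.27 ± 0.08 and 0.97 ± 0.06, and SNX631 raised it by 0.86 ± 0.06 without R1881. With SNX631 present, R1881 raised FANCD2 by 0.60 ± 0.05, which was 0.569 without replicate 2 of the combination, 0.573 without SNX631 replicate 2, 0.575 without SNX631 replicate 4 and 0.491 with library totals, under the limit. FANCI (chr15:89243949-89317261, plus strand) held 18.3, 21.9 and 19.5 CPM in vehicle, 23.7, 23.7 and 22.7 with Senexin B, 79.6, 85.0 and 83.2 with R1881 and 96.6, 112 and 105 with both at 24 h. Its 72 h values were 42.3, 41.4, 43.8 and 41.0 CPM in vehicle, 82.2, 83.7, 83.6 and 78.3 with SNX631, 111, 118, 120.2 and 115 with R1881 and 178, 191, 182 and 177 with both. The groups stood apart in both experiments. FANCI rose with R1881 by 2.05 ± 0.06 and 1.47 ± 0.04, and with SNX631 by 0.96 ± 0.04 and 0.65 ± 0.03.

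The 5 end joining members stayed under the fold limit with R1881, a set too small to be set apart from the shares of all genes called. PRKDC held 546, 506 and 531 CPM in vehicle, 686, 613 and 603 with Senexin B, 719.9, 575 and 699.9 with R1881 and 819.5, 798 and 865 with both at 24 h. At 72 h it held 538, 528, 602 and 571 CPM in vehicle, 706, 684, 737 and 702 with SNX631, 505, 636, 601 and 624 with R1881 and 767, 824, 747 and 639 with both. Vehicle and R1881 libraries overlapped at 72 h, and SNX631 libraries lay above vehicle. For PRKDC the inhibitor effects passed the FDR limit at 0.27 ± 0.05, 0.32 ± 0.05, 0.34 ± 0.05 and 0.33 ± 0.05 (Senexin B without and with R1881, then SNX631 without and with it), and the androgen effect was 0.33 ± 0.05 at 24 h and 0.08 ± 0.05 at 72 h. XRCC5 and XRCC6 were higher with R1881 by less than 1.5 times, at 0.40 ± 0.03 and 0.29 ± 0.02 for XRCC5 and 0.21 ± 0.03 and 0.24 ± 0.02 for XRCC6. XRCC4, the scaffold of ligase IV, was at 0.09 ± 0.16 and 0.11 ± 0.12, and LIG4 at −0.10 ± 0.07 and −0.14 ± 0.06, not past the FDR limit. LIG4 was the member that passed the FDR limit downward with both inhibitors, at −0.31 ± 0.07 with Senexin B and −0.30 ± 0.06 and −0.31 ± 0.06 with SNX631 without and with R1881.

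**Figure D3:**
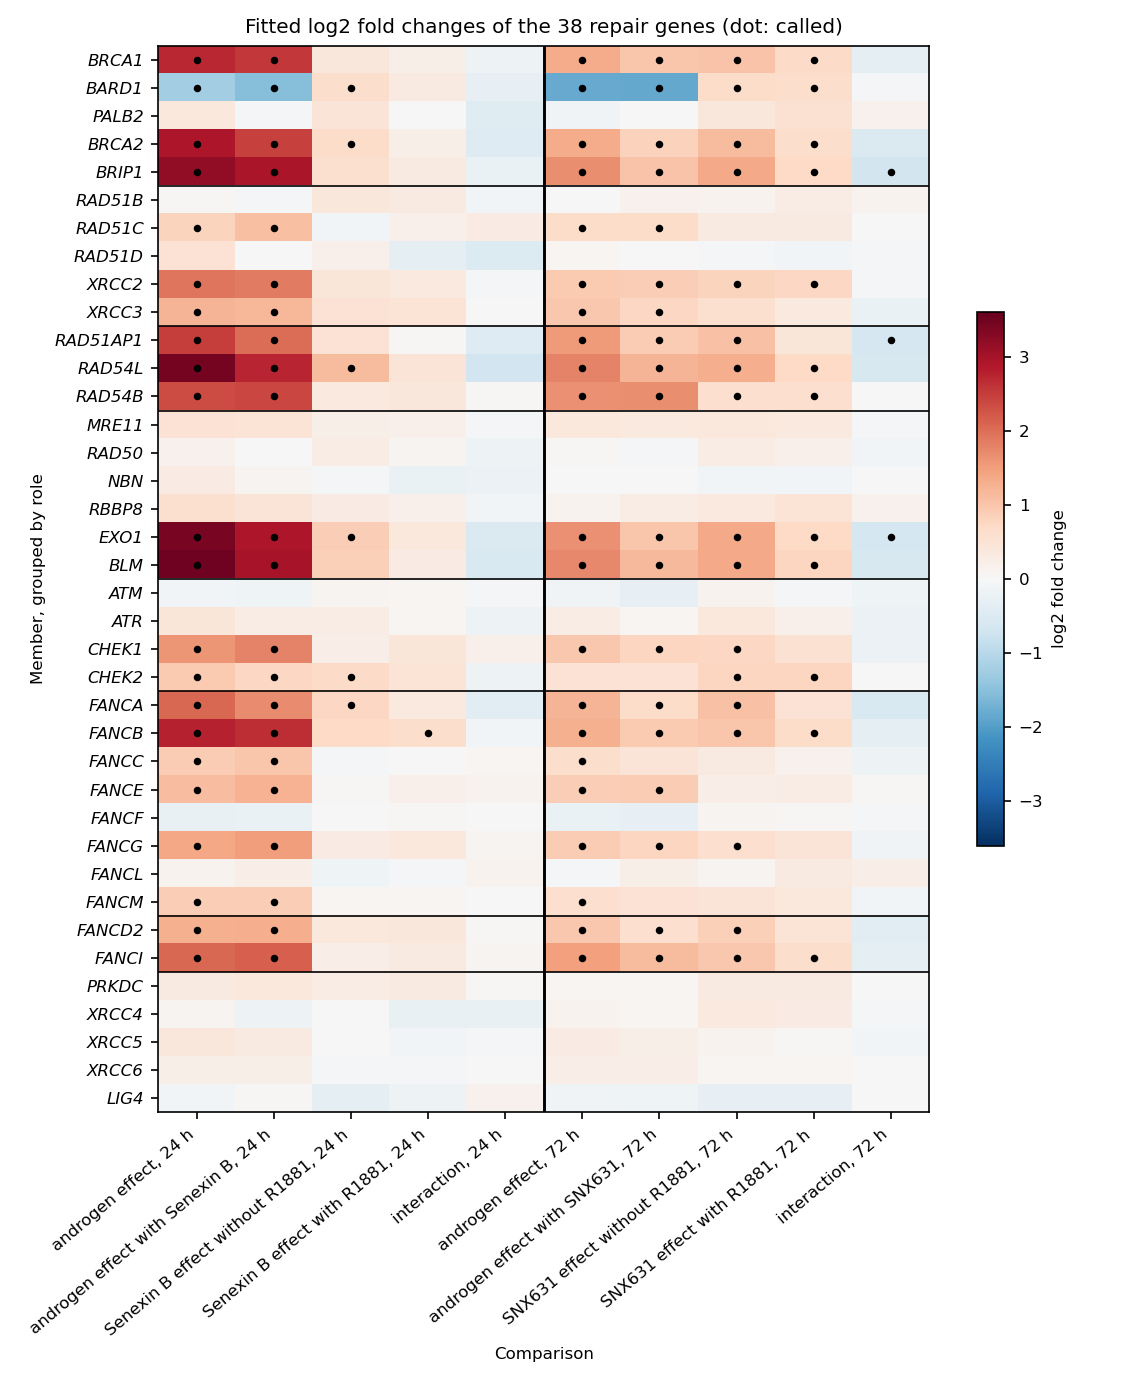
Fitted log2 fold change (colour) of the 38 members (rows, grouped by role) in the 10 comparisons (columns; 24 h left and 72 h right of the heavy line), with a dot where a member was called. The androgen columns are mostly red and BARD1 is blue there. The SNX631 columns hold 17 and 12 dots where the Senexin B columns hold 6 and 1.

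The second question of the design is what CDK8/19 inhibition did with and without androgen. Without androgen, Senexin B raised 6 members (BARD1, BRCA2, RAD54L, EXO1, CHEK2 and FANCA), where 2.02% of all genes rose, and lowered none, where 1.77% fell (edgeR; 1 member was lower at an unadjusted p under 0.05, and DESeq2 called 0 lower). SNX631 raised 17 members, against 2.82% of all genes, and lowered none, against 1.94% (2 lower at an unadjusted p under 0.05, DESeq2 0). The 6 members that Senexin B raised were all among the 17. At the FDR limit with no fold limit, 15 members were higher with Senexin B, against 13.5% of all genes, and 29 with SNX631, against 14.4%. All Senexin B libraries lay above all vehicle libraries in 22 members and below in 3, against 23.5% and 22.3% of all genes. The SNX631 libraries did so in 31 and 2, against 17.6% and 15.4%. Of the 20 members that R1881 raised in both experiments, SNX631 alone raised 15, and it raised 2 others, BARD1 and CHEK2. At 72 h both effects are taken against the same vehicle libraries. Shares of all genes were not computed for overlaps of calls between comparisons, so these overlaps are given as a description only. The doses and times of the 2 compounds differed, so their values are given side by side with no comparison of the compounds.

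With androgen present, Senexin B raised 1 member, FANCB, against 1.61% of all genes, and lowered none, against 1.5% (4 lower at an unadjusted p under 0.05, DESeq2 0). FANCB was at 0.63 ± 0.14 (edgeR adjusted p = 0.000527), and it fell under the fold limit without R1881 replicate 2 (0.50) or replicate 2 of the combination (0.55), which leaves 0 members. SNX631 raised 12 members in the presence of R1881, against 1.89%, and lowered none, against 2.24% (2 lower at an unadjusted p under 0.05, DESeq2 0), and all 12 were among the 17 it raised without R1881. These were BRCA1, BARD1, BRCA2, BRIP1, XRCC2, RAD54L, RAD54B, EXO1, BLM, CHEK2, FANCB and FANCI. At the FDR limit alone, 15 members were higher with Senexin B under R1881 (12.7% of all genes) and 28 with SNX631 (17.8%). NBN and XRCC5 passed it downward under Senexin B with R1881, at −0.24 ± 0.05 and −0.10 ± 0.03.

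S phase markers moved in the same inhibitor comparisons: their sum ranged over 1466 to 1576 CPM with SNX631 and 2857 to 2905 with R1881 and SNX631, both above the matching groups without inhibitor, and over 757 to 816 and 2325 to 2562 with Senexin B. SNX631 without R1881 raised 17 of the 24 S phase markers and all 24 G2 and mitosis markers, and with R1881 it raised 3 and 7. Senexin B raised 5 and 3 without R1881, and with it 1 G2 and mitosis marker. At the FDR limit alone, 24 and 24 were higher with SNX631 without R1881, and 23 and 24 with R1881. The same counts for Senexin B were 17 and 9 without R1881, and 13 and 2 with R1881. The G2 and mitosis sum ranged over 1094 to 1178 CPM with SNX631 and 2222 to 2442 with R1881 and SNX631, and over 274 to 293 and 999 to 1116 CPM with Senexin B. The part of cell cycle position in the inhibitor results was not tested.

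**Figure D4:**
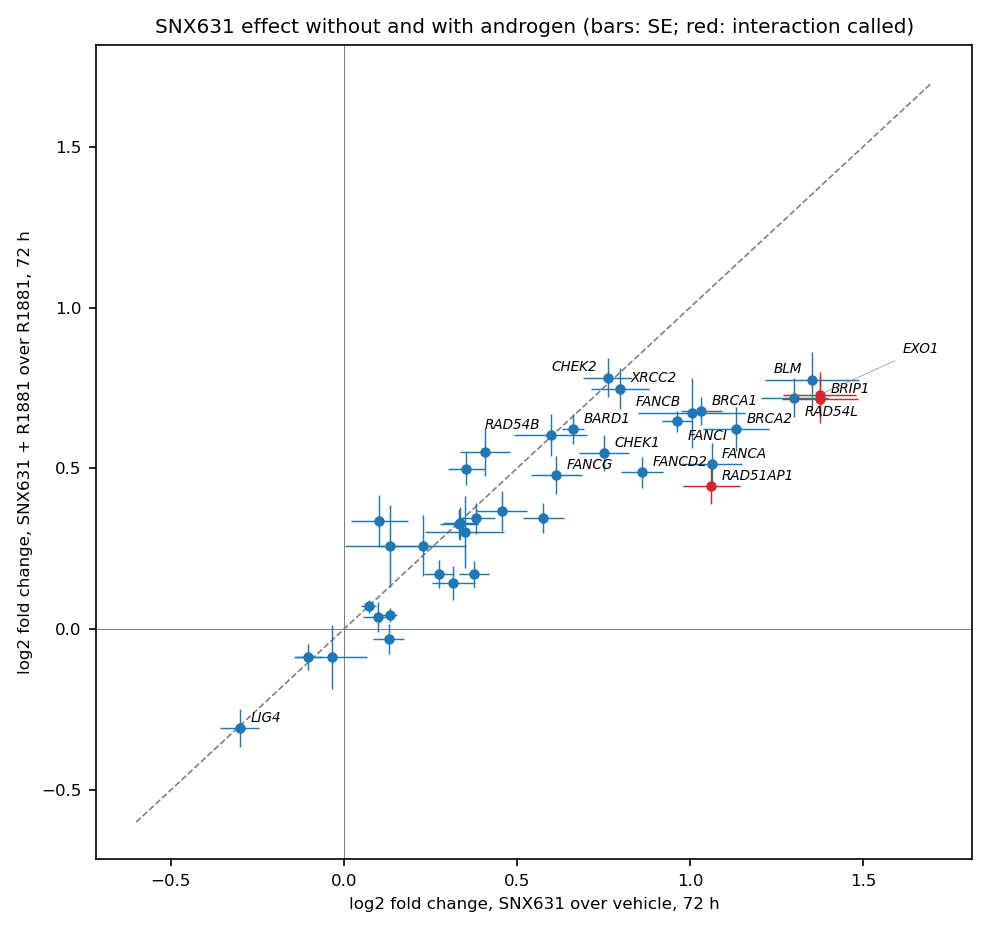
Log2 fold change of the 38 members with SNX631 in the absence (horizontal axis) and presence (vertical axis) of R1881 at 72 h, with SE bars and the line of equal effects dashed. LIG4, NBN and RAD51D are the points below 0 on both axes, CHEK2, XRCC2, BARD1 and RAD54B lie near the dashed line, and BRIP1, RAD51AP1 and EXO1, in red, lie below it with a called interaction.

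The interaction asks whether androgen and inhibitor effects add up on the log scale, being the androgen effect with inhibitor minus that without. At 72 h, 3 members had a called negative interaction, where 0.821% of all genes did, and none a positive one, where 0.373% did (edgeR; 0 positive at an unadjusted p under 0.05 and 0 by DESeq2). BRIP1 was at −0.66 ± 0.13 (adjusted p = 0.000375), RAD51AP1 at −0.62 ± 0.10 (adjusted p = 2.35e-05) and EXO1 at −0.65 ± 0.13 (adjusted p = 0.000336). The SNX631 effect on RAD51AP1 was 1.06 ± 0.08 without R1881 and 0.45 ± 0.06 with it. With no fold limit, 9 members passed in the negative direction, against 4.1% of all genes: RAD54L (−0.58 ± 0.11), FANCA (−0.55 ± 0.11), BRCA2 (−0.51 ± 0.12), FANCD2 (−0.37 ± 0.08), BRCA1 (−0.35 ± 0.07) and FANCI (−0.32 ± 0.05) joined these 3. The count depended on single libraries. Without vehicle replicate 1, EXO1 (−0.59) was the only one called, BRIP1 being at −0.54 and RAD51AP1 at −0.57, and RAD51AP1 was also under the limit without R1881 replicate 2 (−0.58). Without R1881 replicate 1, 6 were called, with BRCA2 (−0.597), FANCA (−0.59) and RAD54L (−0.611) added, and 6 were called without replicate 2 of the combination as well. Leaving out SNX631 replicate 4 gave 5. RAD54L also passed the limit without SNX631 replicate 1 (−0.609) or 4 (−0.626), replicate 2 (−0.586), 3 (−0.589) or 4 (−0.591) of the combination, or vehicle replicate 3 (−0.705), and with library totals (−0.587). FANCA did so without replicate 2 of the combination (−0.596), SNX631 replicate 3 (−0.59) or vehicle replicate 2 (−0.594). The test against a fold of 1.5, at an FDR under 0.05, gave 0.

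At 24 h no member had a called interaction, where 0.245% of all genes were positive and 0.332% negative (edgeR; 1 member positive and 11 negative at an unadjusted p under 0.05, and 0 by DESeq2). With no fold limit edgeR also gave 0 negative members at 24 h, against 1.02% of all genes. The median interaction of the members was −0.08 at 24 h and −0.09 at 72 h. Cell cycle markers went the same way. At 72 h, 4 of the 24 S phase markers and 3 of the 24 G2 and mitosis markers had a called negative interaction, and at 24 h 3 and 1. With no fold limit, 11 and 19 passed in that direction at 72 h, and 5 and 3 at 24 h. Their median interactions at 72 h were −0.27 and −0.40. The part of cell cycle position in the interactions was not tested. Whether the interactions of the 2 experiments differ from each other was not tested.

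The androgen effects of the 2 experiments were compared in a fit of all 28 libraries. The log2 fold change with R1881 was lower at 72 h than at 24 h in 13 members. A called negative difference was found in 1.31% of all genes. All 13 rose with R1881 at both times, so their rise was smaller at 72 h. Over all genes, a negative difference can be a smaller rise or a larger fall. No member had a called positive difference, where 0.57% of all genes did. In edgeR 0 were positive at an unadjusted p under 0.05, and DESeq2 called 13 negative and 0 positive. The largest differences were those of EXO1 (−1.76 ± 0.20, log2 ± SE), BLM (−1.76 ± 0.29), RAD54L (−1.63 ± 0.18), BRCA2 (−1.57 ± 0.18), BRIP1 (−1.52 ± 0.22), FANCB (−1.49 ± 0.28) and BRCA1 (−1.38 ± 0.11). XRCC2 (−0.99 ± 0.13), RAD51AP1 (−0.94 ± 0.15), FANCA (−0.85 ± 0.15), RAD54B (−0.68 ± 0.14), CHEK1 (−0.61 ± 0.11) and FANCI (−0.59 ± 0.07) followed. Their vehicle levels differed between the experiments as well: BRCA1 had a vehicle mean of 7.85 ± 1.21 CPM at 24 h and 21.2 ± 1.54 at 72 h (± SD), while its R1881 means were 50.5 ± 0.677 and 53.8 ± 3.55. EXO1 went from 1.75 ± 0.155 to 6.19 ± 0.888 CPM in vehicle and from 18.8 ± 1.86 to 19.6 ± 1.11 with R1881. The S phase sum was also higher in vehicle at 72 h than at 24 h, and its part was not tested. CHEK1 fell under the fold limit without R1881 replicate 2 at 24 h (−0.58) or vehicle replicate 4 at 72 h (−0.565). FANCI did so without R1881 replicate 2 (−0.57), R1881 replicate 3 (−0.58), vehicle replicate 1 (−0.56) or vehicle replicate 3 (−0.56) at 24 h, without R1881 replicate 1 (−0.57), R1881 replicate 4 (−0.58) or vehicle replicate 3 (−0.57) at 72 h, and with no filter on low counts (−0.56). BARD1 fell more at 72 h (−1.81) than at 24 h (−1.26), so its negative difference is a larger effect. That difference was −0.54 ± 0.07, under the limit, and −0.59 without R1881 replicate 1 at 72 h, past it. PALB2 was at −0.49 ± 0.13, and at −0.595 without R1881 replicate 2 at 24 h, past the limit.

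**Figure D5:**
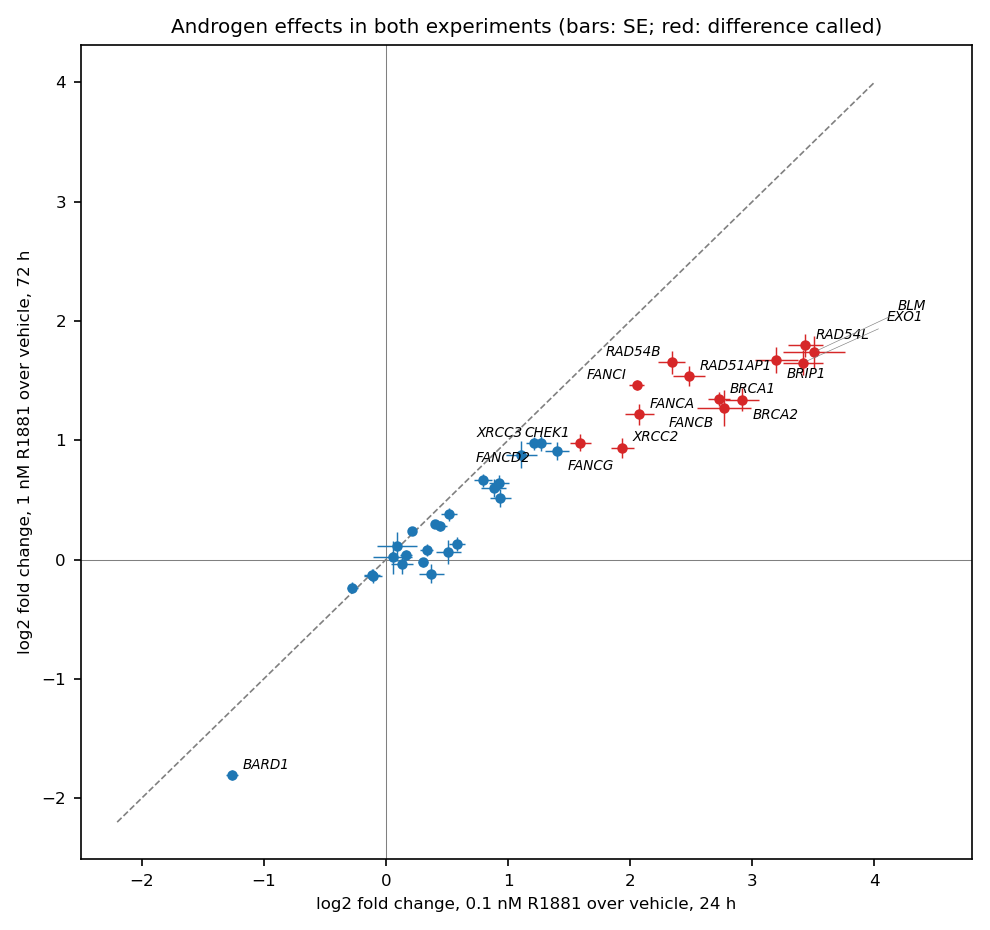
Log2 fold change of the 38 members with 0.1 nM R1881 for 24 h (horizontal axis) and with 1 nM R1881 for 72 h (vertical axis), with SE bars, the line of equal effects dashed, and red points where the difference was called. The 13 red points lie below the dashed line, and BARD1 stands alone at the lower left.

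Other genes of these pathways were read from lists of further members. Of 39 other recombination genes, 37 were tested, and 14 rose with R1881 at 24 h and 11 at 72 h, where 9.81% and 9.7% of all genes rose and 9.19% and 10.1% fell. The leading ones were CLSPN, the mediator of CHEK1 activation, at 3.24 ± 0.10 and 1.78 ± 0.07, MND1, a partner of the meiotic recombinase, at 3.17 ± 0.39 and 1.68 ± 0.24, and EME1, a subunit of the MUS81 nuclease, at 2.8 ± 0.18 and 1.43 ± 0.10. The MND1 vehicle mean at 24 h was 0.323 ± 0.134 CPM (± SD), which rests on few counts. Of 15 other Fanconi anaemia genes, 5 rose at 24 h and 3 at 72 h. UBE2T, the ubiquitin conjugase of the pathway, was at 1.33 ± 0.07 and 0.78 ± 0.05. Among 18 genes of break signalling and the 53BP1 branch, 4 rose at 24 h, and 3 rose and 1 fell at 72 h. H2AX, the histone marked at breaks, was at 1.27 ± 0.05 and 1.18 ± 0.04, and ABRAXAS1, a scaffold of a BRCA1 complex at ubiquitin chains, was at −0.54 ± 0.09 at 24 h, under the limit, and fell to −0.87 ± 0.07 at 72 h. Of 13 other end joining genes, 1 rose and 1 fell at 24 h, and 1 fell at 72 h, which is near the shares of all genes. The one that fell at each time was APLF, a histone chaperone that binds Ku, at −2.87 ± 0.29 and −2.32 ± 0.22, from a mean of 6.39 ± 0.577 CPM in vehicle to 0.860 ± 0.359 with R1881 at 24 h and from 6.38 ± 1.07 to 1.27 ± 0.240 at 72 h. The median log2 fold change at 24 h and 72 h was 0.42 and 0.36 for other recombination genes, 0.33 and 0.18 for other Fanconi anaemia genes, 0.13 and 0.19 for break signalling, and 0.03 and −0.10 for other end joining genes.

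Library totals ranged from 9846595 to 33809419 counts, and all but 1 library were at or under 15248512. Markers of prostate luminal cells were present, with median levels over libraries from 11.8 to 1050 CPM for 12 genes, and 14 markers of other cell types reached at most 32.8 CPM in any library, COL1A1 being the highest of them and CD3E being at 0 throughout. The pair of replicates most alike still differed by more than counting noise (chi-square per degree of freedom 1.196), so no library was counted as a second reading of another. This value cannot show whether the libraries of a group came from separate cultures.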

How the data were processed

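Total RNA of LNCaP cells was sequenced from strand-marked libraries (NEBNext Ultra II Directional, per the labels). The submitters' processing notes name FastQC, cutadapt 2.8, STAR 2.7.2b, featureCounts and Subread 2.0.3 and the builds GRCh38.p13 and GRCm39, without options. The authors deposited estimated counts per gene that are not normalized, and 16.9% of the values above 0 are not whole, so expected counts were rounded here. The 2 added entries of non-human sequence held 0 counts and were left out. The study's text gives another Senexin B dose than the labels, and the labels were used.

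The 4 groups of an experiment were fitted together, apart from the other experiment, by the quasi-likelihood test of edgeR 4.0.16 (R 4.3.3), with TMM scaling and filterByExpr (minimum count 10, minimum total 15). This left 15948 genes at 24 h, 16074 at 72 h and 16672 in the fit of all 28 libraries. Adjusted p values are Benjamini-Hochberg over all genes tested, folds are on the log2 scale with Wald standard errors, and CPM use TMM-scaled library sizes. The scripts were tested on simulated data. DESeq2 1.42.0, other scalings, filters and limits, a replicate block and each library left out were the alternatives. The members, gene lists and rules were chosen with earlier results of these data known. Values in every library are given for the up to 8 members that rose and up to 6 that fell most with androgen, for those called with an inhibitor or for an interaction, and for the member of highest level in each role. Up to 3 genes of each other list are named by size of the androgen effect. The other lists are other recombination genes, other Fanconi anaemia genes, break signalling and 53BP1 branch, other end joining genes, S phase markers, and G2 and mitosis markers.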

Additional observations from a re-analysis of the deposited data

Results flagged for a closer look

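In 88 sets of 4 libraries at 72 h, the gap of the most distant library to its neighbour was set against the whole range of the set, and chance alone flags about 1 in 20, or 4.4 of these. The 6 that passed were FANCB in vehicle replicate 1 (gap share 0.85, at 1.65 CPM beside 3.43 in the nearest library), FANCG in vehicle replicate 2 (0.915, at 16.8 beside 18.6), BARD1 in SNX631 replicate 2 (0.874, at 300 beside 319), BRCA2 in R1881 replicate 1 (0.852, at 23.6 beside 31.7), BRCA2 in replicate 4 of the combination (0.869, at 40.2 beside 48.3) and RAD54L in replicate 1 of the combination (0.873, at 43.8 beside 47.1).

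The androgen effect differed with and without SNX631, by the interaction term at 72 h, in BRIP1 (−0.661), RAD51AP1 (−0.616) and EXO1 (−0.645). It differed between the experiments, on the log2 scale and as 72 h minus 24 h, in BRCA1 (−1.38), BRCA2 (−1.57), BRIP1 (−1.52), XRCC2 (−0.994), RAD51AP1 (−0.942), RAD54L (−1.63), RAD54B (−0.683), EXO1 (−1.76), BLM (−1.76), CHEK1 (−0.611), FANCA (−0.849), FANCB (−1.49) and FANCI (−0.585). Time, R1881 dose and experiment cannot be told apart in these differences.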

How the results depend on the processing

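The counts of members called with R1881 stayed within 1.5 times under every alternative except the looser limit with SNX631 present, and DESeq2 gave the same counts as edgeR in all comparisons. Without a fold limit and at an FDR below 0.05, the counts were 30 for R1881 with SNX631, 33 and 32 for SNX631 without and with R1881, 25 and 22 for Senexin B, 2 and 12 for the interactions at 24 h and 72 h, and 23 for the difference between experiments. With the fold limit kept at an FDR under 0.05, and also with no filter on low counts, the interaction at 24 h gave 1. The test against a fold of 1.5, at an FDR under 0.05, left 10 and 1 for SNX631 and 1 and 0 for Senexin B. It left 0 for the interaction at 72 h and 8 for the difference. Leaving out single libraries gave 0 to 1 for Senexin B with R1881 and 1 to 6 for the interaction at 72 h.

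Scaling by library totals put the median of all genes at −0.116 for R1881 and −0.122 for R1881 with SNX631 at 72 h, from −0.0139 and −0.0138 under TMM, and turned the sign of PRKDC (−0.0206), RAD50 (−0.0624), RAD51B (−0.0839) and RAD51D (−0.0379) at 72 h and RAD51B (−0.023) at 24 h, none of them called. Leaving out single libraries moved NBN from −0.0543 to 0.00317, RAD51B from −0.0774 to 0.0903 and RAD51D from −0.0202 to 0.118 at 72 h, and RAD51B from −0.0132 to 0.13 and XRCC4 from −0.0394 to 0.292 at 24 h. Of 4746 recomputed values of 253 single-member results, 4529 kept direction and call, 77 lost the call, 128 gained it and 12 turned sign. The cause was not tested.

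Deviations of libraries with the same replicate number correlated weakly (r −0.069 to 0.185 at 24 h and −0.0839 to 0.0558 at 72 h). Different numbers gave −0.17 to 0.0902 and −0.13 to 0.179. At 24 h, r was above 0.1 in 2 of 18 pairs with the same number and 0 of 36 others. At 72 h it was in 0 of 24 and 3 of 72. These values do not settle whether the numbers pair libraries at 24 h. With a replicate block the counts were 22 and 21 for R1881 at 24 h and 72 h, 22 and 19 with the inhibitors, 6 and 1 for Senexin B, 17 and 12 for SNX631, 0 and 3 for the interactions and 13 for the difference, as without it. Depth limits the low levels: the vehicle levels of BLM and FANCB, and of MND1 among the other recombination genes, rest on few counts.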

Other observations

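Beyond the members, SNX631 raised 10 of 37 other recombination genes without R1881, where 2.82% of all genes rose, and 6 with it, where 1.89% did. Senexin B without R1881 raised 3 of the 37, where 2.02% of all genes rose. Of 18 genes of break signalling and the 53BP1 branch, SNX631 without R1881 raised 1, which is near the share of all genes.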
